A study of Mus musculus with 2 samples.

Results

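The odorant receptor genes of mouse chromosome 2 were examined in genomic DNA, by array comparative genomic hybridisation. In this assay test and control DNA carry different dyes and compete for the same probes, so a probe's ratio reads the relative number of copies of its sequence. The genes were taken by name and place: every measurement probe present in both scanner files, with a gene name starting with Olfr and a position on chromosome 2. This gave 150 genes, measured by 168 adult-array probes and 167 embryo-array probes, out of 23135 gene names in the series. The probe without an embryo value was 1 of 3 for Olfr1164, left out for an outlier mark.

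Odorant receptors are G protein-coupled receptors of olfactory sensory neurons, and they form a very large gene family in the mouse. They lie in tandem clusters that grew by duplication, with pseudogenes among the intact genes, and each neuron expresses mainly 1 allele of 1 receptor. Such clusters are known as places where copy number varies between individuals and strains. The present arrays read DNA, so they hold no information on whether a receptor was expressed.

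The study's question is whether the genomes of progeny differ when the sire is heterozygous for Dnmt3L, a catalytically inactive partner of germ-line DNA methyltransferases. There were 2 arrays, 1 per stage, and every animal was labelled a Dnmt3L+/+ female. In the adult hybridisation Cy3 marked tail DNA of adult C57BL/6 offspring whose sire was Dnmt3L+/-, and Cy5 marked tail DNA from an unrelated colony of C57BL/6 mice. In the embryo hybridisation the dyes were the other way round: Cy5 marked DNA of whole E10.5 embryos sired by a Dnmt3L+/- male, and Cy3 marked embryos of a control cross. For the embryos the title names an (FVB/NJ x C57BL/6)F1 and the description names C57BL/6, so the strain is not settled here. The sources used here do not say whether animals were pooled. Stage, dye orientation and kind of control all changed together between the arrays and cannot be told apart. The probes of the X chromosome had a median log2 ratio of offspring over control of −0.86 on both arrays (1569 and 1566 probes), where DNA of females on both sides would give about 0, so on each array the X chromosome goes against the label of at least 1 side as female. The groups are therefore the DNA labelled offspring and the DNA labelled control. With 1 array per stage there is no replicate, so precision is limited by how few arrays there are, and the values below are descriptions with no test, apart from 1 fit over both arrays.

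Each value is the log2 ratio of offspring over control, centred on the median of its array, so that 0 is the typical probe. The error given with a ratio is Agilent's own estimate for that probe, turned to log2; its median over the receptor probes was 0.259 (adult) and 0.244 (embryo). After background subtraction the receptor probes of the adult array had a median brightness of 40.5 in the offspring channel and 55.2 in the control channel, and those of the embryo array 203 and 109. The processed signals given below are on a larger scale and cannot be read as this brightness. Their mean log2 over both channels had a median over receptor probes of 9.90 (adult) and 10.04 (embryo). All 308 probes of the array design that were spotted 3 times had a median SD over spots of 0.194 (adult) and 0.0651 (embryo). The 4 receptor probes among them, for Olfr358, Olfr995, Olfr1164 and Olfr1226, had SDs from 0.102 to 0.332 and from 0.0203 to 0.177.

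All 150 names were found in the RefSeq table of assembly GRCm38.p6, of which 147 are current symbols. The other 3 are older names: Olfr1038 is now Olfr1038-ps, Olfr1517 is now Olfr1039 and Olfr1125 is now Olfr1124. The table marks 148 of the genes as protein coding and 2, Olfr1010 and Olfr1038, as transcribed pseudogenes. It holds 287 coding Olfr genes on chromosome 2, so the array measured 148 of 287 (51.6%), and 90 pseudogenes. In the files' own coordinates, whose genome build the sources used here do not name, the genes stood in the same order as in the table for 149 of 149 neighbouring pairs. Most genes (140) had 1 probe, 2 had 2 and 8 had 3, and the probes were 48 to 60 bases long.

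The start regions of these genes show how they differ from most genes in base composition. RefSeq (GRCm38.p6) gave a window of 300 bases, from 250 before to 50 after the gene start, for 124 of the 150 genes. Their median GC content was 33.7% (range 22% to 43.3%), beside 35% over 944 odorant receptor windows and 52.7% over 27025 windows of all genes. The windows of Olfr1228 (chr2:89249643-89249942, minus strand, 28.3% GC) and Olfr1254 (chr2:89789301-89789600, minus strand, 34% GC) are printed because these genes held the highest adult and the lowest embryo ratio. Both are given 5′ to 3′ along the gene. Capitals on either strand mark TAATTA, the core bound by homeodomain factors such as Lhx2 and Emx2, and TATAAA, the letters of a TATA box. Whether these letters act as sites was not tested. In the Olfr1254 window the 50 bases after the RefSeq gene start open with atg, the letters of a start codon. The 250 bases before it are therefore not shown to lie before a start of transcription.
Olfr1228: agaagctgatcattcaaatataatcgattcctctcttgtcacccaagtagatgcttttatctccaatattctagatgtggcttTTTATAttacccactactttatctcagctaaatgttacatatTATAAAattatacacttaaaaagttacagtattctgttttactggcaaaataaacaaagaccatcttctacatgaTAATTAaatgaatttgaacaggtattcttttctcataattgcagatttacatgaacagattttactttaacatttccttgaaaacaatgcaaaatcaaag
Olfr1254: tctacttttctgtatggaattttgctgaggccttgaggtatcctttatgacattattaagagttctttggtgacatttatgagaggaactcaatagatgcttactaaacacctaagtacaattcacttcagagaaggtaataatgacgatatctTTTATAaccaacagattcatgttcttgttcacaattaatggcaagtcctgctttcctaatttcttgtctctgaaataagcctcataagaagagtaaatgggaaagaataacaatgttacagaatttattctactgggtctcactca

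Counted on both strands, TAATTA stood in 30 of the 124 windows (24.2%), in 18.6% of all odorant receptor windows and in 5.31% of all windows. TATAAA stood in 52 (41.9%), 41.1% and 14.2%. The core of the site bound by EBF factors, CCCNNGGG, stood in 3 (2.42%), 3.07% and 13.4%. The motifs were counted separately, and their matches may overlap within a window. Where a RefSeq entry opens at a start codon, as for Olfr1254, its window may not be the same kind of region as others. The shares and GC contents were not split by this. Across receptor probes with a window, GC content and the ratio had Spearman coefficients of −0.129 on the adult array (139 probes) and 0.025 on the embryo array (138 probes). Over all autosomal probes with a window the coefficients were 0.048 and −0.0098. Probes of 1 array share its labelling and depth of signal, so these are descriptions.

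As a group the receptor probes sat at the array median on both arrays. The adult ratios had a median of −0.0038 (SD over probes 0.324, 168 probes) with quartiles at −0.195 and 0.0975, and 85 lay below 0 and 83 above. The embryo ratios had a median of 0.020 (SD 0.254, 167 probes) with quartiles at −0.101 and 0.117, and 72 lay below 0 and 95 above. Within 0.25 log2 of the array median were 114 adult (67.9%) and 123 embryo values (73.7%). The other named probes of chromosome 2, those with a name that is not a position, had medians of 0.014 (SD 0.330, 2999 probes) and 0.0022 (SD 0.350, 2998 probes). Odorant receptor probes of chromosome 7 (146 probes, 134 genes) had medians of −0.033 and −0.015, and those of the other autosomes (349 probes, 309 genes) −0.043 and −0.0052.

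**Figure D1:**
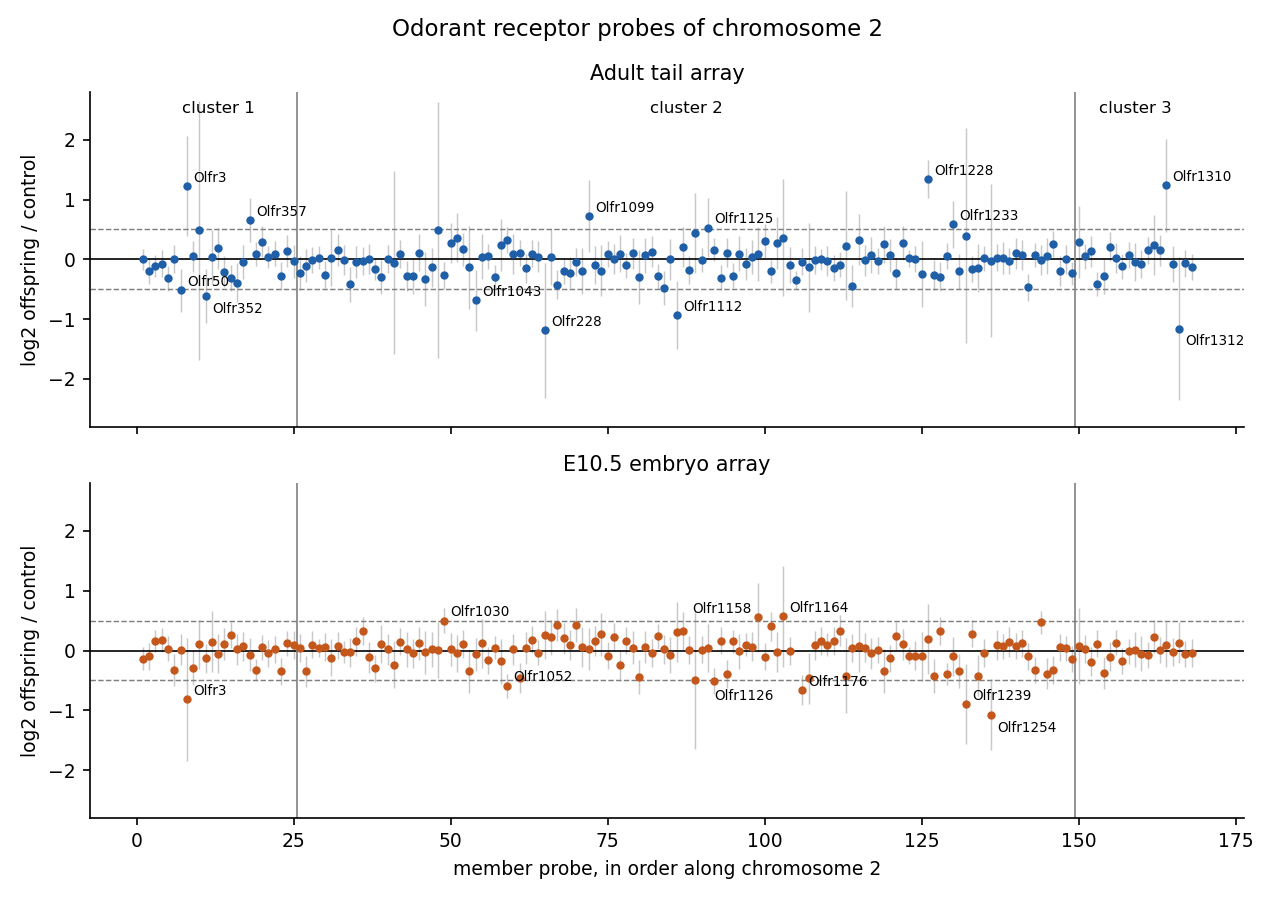
Log2 ratio of offspring over control (y axis, no unit beyond log2) for each receptor probe in its order along chromosome 2 (x axis), adult array above and embryo array below. Points are probes, grey bars are Agilent's error of the ratio, dashed lines mark 0.5 log2 and vertical lines separate the 3 clusters; most points lie near 0, and among the adult points above 1 or below −1 the bars are longer for Olfr3, Olfr1310, Olfr228 and Olfr1312 than for Olfr1228 (error 0.32).

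A ratio of at least 0.5 log2 was reached by few of these probes. On the adult array 6 of 168 (3.57%) were lower in the offspring and 7 (4.17%) were higher, where all autosomal probes gave 5.52% lower and 3.69% higher. On the embryo array 6 of 167 (3.59%) were lower and 3 (1.8%) were higher, where all autosomal probes gave 5.57% and 4.53%. The receptor shares thus lay at or below the background except for the adult higher side, where 7 probes stood at 4.17% beside 3.69%. Just inside that limit were Olfr50 (−0.52) and Olfr1125 (0.53) on the adult array and Olfr1126 (−0.51) and Olfr1030 (0.50) on the embryo array. Just outside it were Olfr1110 (−0.49) and Olfr351 (0.49), and Olfr1122 (−0.50, under the limit before rounding) and Olfr1263 (0.47).

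On the adult array the highest ratio belonged to Olfr1228, in chr2:88947393-88947452 of the files. Its processed signal was 1236 in the offspring and 482 in the control, a log2 ratio of 1.34 (Agilent error 0.32), or 2.53 times after centring. The probes on either side of Olfr1228 read 0.31 and −0.27, so the high value stood on 1 probe. The same probe had embryo signals of 267 (offspring) and 232 (control), and a log2 ratio of 0.19 (error 0.59). Olfr1228 was the only adult receptor probe past 0.5 log2 whose ratio was also over 2 times its Agilent error; that share, 0.595% of the receptor probes, stood beside 2.13% of the other named probes of chromosome 2. With normexp-corrected signals, a different background correction of the raw spots with an added offset of 50, the adult ratio of Olfr1228 was 0.615. The offset shrinks the log ratios of dim probes by construction, so a smaller normexp ratio is no second check of their size.

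The next highest adult ratios had larger errors, and with normexp signals they were 0.196 (Olfr1310) and 0.219 (Olfr3). Olfr1310 read 1.24 (error 0.78) from signals of 293 in the offspring and 122 in the control, and 0.10 on the embryo array. Olfr3 read 1.23 (error 0.84) from signals of 270 and 113. Of all 167 probes with both values, Olfr3 was the only 1 past 0.5 log2 on both arrays, and the directions were opposite: its embryo ratio was −0.82 (error 1.03), from signals of 101 in the offspring and 177 in the control. The other adult values past the limit on the higher side were Olfr1099 (0.73), Olfr357 (0.66), Olfr1233 (0.58) and Olfr1125 (0.53), and on the embryo array these 4 read from −0.10 to 0.04.

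On the lower side of the adult array, Olfr228 and Olfr1312 had the lowest ratios, −1.19 (error 1.13) and −1.16 (error 1.19). Both were too dim in the offspring channel to be called well above background. The software gave such dim channels a surrogate signal. With it, the control was 2.25-fold brighter in processed signal than the offspring for Olfr228 (191 against 84.9) and 2.20-fold brighter for Olfr1312 (180 against 81.8). As the offspring side is an estimate, these folds are no lower bounds. This fold, taken before centring, divides the control's signal by what the dim probe itself read or, if that is higher, by the dimmest signal of any probe well above background. Both genes were well above background on the embryo array, with ratios of 0.26 and 0.13. The adult sign of both changed with the signal used: with normexp signals their log2 ratios were 0.103 and 0.132. Olfr1112, Olfr1043 and Olfr352, described next, likewise turned to between 0.068 and 0.109. For dim probes the offset and the centring weigh heavily on the normexp sign, so it does not tell their direction. Olfr1112 followed at −0.93 (error 0.57; embryo 0.31), then Olfr1043 at −0.69, Olfr352 at −0.61 and Olfr50 at −0.52, whose embryo values were −0.07, −0.13 and 0.01.

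A further 5 probes were not well above background on the adult array. Olfr351, Olfr1026, Olfr1164 and Olfr1239 were dim in both channels, so no fold is given for them. Olfr1015 was dim in the offspring alone, with the control 1.02-fold brighter by the surrogate signal (error of the log2 ratio 1.53). With normexp signals its adult log2 ratio was 0.203. Among embryo values 0 receptor probes were dim, and no receptor probe was saturated on either array.

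Some embryo extremes fell on genes that were also extreme on the adult array, with the opposite sign: Olfr3, Olfr1086 (adult −0.42, embryo 0.43) and Olfr1122 (adult 0.44, embryo −0.50). The errors of Olfr1122, 0.67 (adult) and 1.15 (embryo), were larger than its ratios. Opposite signs were common, since 39.0% of all autosomal probes had the same sign on both arrays. Olfr1254 had the lowest embryo ratio, −1.08 (error 0.59), from signals of 169 in the offspring and 355 in the control. Its adult value was −0.02 (error 1.29) from 115 and 115. Olfr1239 followed at −0.89 (error 0.67), from 158 and 291, and was dim in both channels on the adult array. After Olfr3 (−0.82), the other probes past the limit on the lower side were brighter: Olfr1176 read −0.66 (error 0.25) from 1043 and 1643, Olfr1052 −0.59 (error 0.20) from 1223 and 1830, and Olfr1126 −0.51 (error 0.22) from 1431 and 2033. Their adult values were −0.04, 0.32 and 0.16, and none of them was past the limit there.

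On the higher side of the embryo array stood Olfr1164 at 0.57 (error 0.85), Olfr1158 at 0.55 (error 0.58) and Olfr1030 at 0.50 (error 0.21). Olfr1030 was the brightest of them, with 3522 in the offspring and 2477 in the control, and read −0.27 on the adult array. With normexp signals the embryo ratios of Olfr1164 and Olfr1158 turned to −0.352 and −0.246, and that of Olfr1030 was 0.738. Olfr1164 and Olfr1158 are dim, so the normexp offset weighs on their signs and does not tell their direction. Olfr1030, Olfr1052, Olfr1126 and Olfr1176 were the 4 embryo receptor probes past 0.5 log2 and over 2 times their error (2.40% of the receptor probes, against 7.97% of the other named probes of chromosome 2). Below the limit, Olfr1263 (0.47), Olfr1086 (0.43), Olfr1093 (0.43) and Olfr73 (0.40) read highest, and Olfr1122 (−0.50) and Olfr1179 (−0.47) lowest.

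On the adult array the large ratios stood on dim probes: of the 13 receptor probes past 0.5 log2, 13 lay in the dimmer part of the receptor probes when split at their median signal. Of the 9 embryo probes past 0.5 log2, 5 lay in the dimmer part and 4 in the brighter part. Receptor probes at or below the X median of −0.86 were Olfr228, Olfr1112 and Olfr1312 on the adult array and Olfr1239 and Olfr1254 on the embryo array. The share of all autosomal probes at or below that value was not taken, so these probes cannot be read as lost copies. Other named chromosome 2 probes of the dimmest signal group, described next, had SDs of 0.588 (adult) and 0.449 (embryo). A neighbour on the array past 0.5 log2 in the same direction was found for 0 of the 13 adult and 1 of the 9 embryo probes. Over all autosomal probes past 0.5 log2 the shares were 9.73% (363 of 3732) and 12.1% (495 of 4090), so counts this small are near the background. The embryo probe was Olfr1239, whose right-hand neighbour, a probe with no gene name, read −0.87.

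Receptor probes were then set against other named chromosome 2 probes of like signal, in 5 groups of about equal size by the mean log2 signal of both channels. The medians of the receptor probes minus those of the comparison probes, from the dimmest to the brightest group, were 0.105, −0.062, −0.055, −0.031 and −0.023 on the adult array, with a mean of −0.013. On the embryo array they were 0.075, 0.020, 0.057, 0.012 and −0.058, with a mean of 0.021. Single receptor probes within a group had SDs from 0.168 to 0.559 (adult) and from 0.186 to 0.377 (embryo). The differences of medians have no replicate and were not tested. The share past 0.5 log2 in the dimmest adult group was 29.4% of the receptor probes (10 of 34) and 32.2% of the comparison probes. In the 3 brightest adult groups it was 0 receptor probes, beside 2.35%, 0.96% and 1.07% of the comparison probes. In the dimmest embryo group the shares were 14.7% (5 of 34) and 17.6%. In the following embryo groups, from dim to bright, receptor shares were 0%, 0%, 9.09% (3 of 33) and 2.94%. The comparison probes there had 11.6%, 11.2%, 5.92% and 8.14%.

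**Figure D2:**
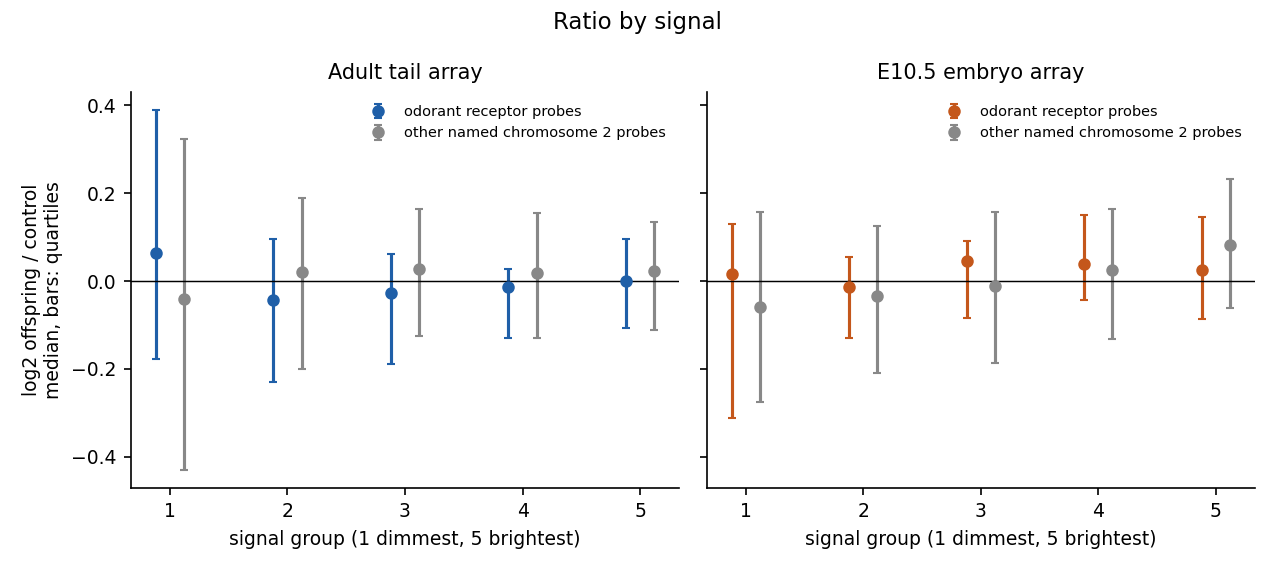
Median log2 ratio of offspring over control (y axis, bars from the lower to the upper quartile) in 5 signal groups from dim to bright (x axis), for receptor probes in colour and other named chromosome 2 probes in grey, adult array left and embryo array right. The quartile bars of both sets overlap in all 5 groups on each array, and the widest adult bars are those of the dimmest group.

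The genes fell into 3 clusters when a gap of over 1 Mb between neighbours was taken to end a cluster. The first, chr2:36353958-37264565, ran 0.911 Mb from Olfr339 to Olfr368 with 25 probes of 21 genes. Its median was 0.0002 (SD 0.384) on the adult array and 0.017 (SD 0.230) on the embryo array. The second and largest, chr2:85097956-89949991, ran 4.85 Mb from Olfr992 to Olfr142 with 124 probes of 112 genes, and had medians of −0.0066 (SD 0.292) and 0.023 (SD 0.273). The third, chr2:110880876-111715561, ran 0.835 Mb from Olfr1276 to Olfr1314 with 19 probes of 17 genes, and had medians of 0.028 (SD 0.436) and −0.016 (SD 0.138). The cluster medians lay between −0.016 and 0.028, and with 1 array per stage they were not tested.

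The genes at the ends of the clusters read close to the rest. Olfr339 and Olfr368 had adult values of 0.0002 and −0.04 and embryo values of −0.14 and 0.09. Olfr992 and Olfr142 read −0.22 and −0.23, then 0.04 and −0.15. Olfr1276 and Olfr1314 read 0.28 and −0.13, then 0.08 and −0.04. Other probes inside the clusters (23, 100 and 11 of them) had adult medians of −0.016, 0.035 and 0.046 and embryo medians of 0.146, 0.077 and 0.020. The 30 probes on each side of a cluster had medians between −0.081 and 0.045 (adult) and between −0.133 and 0.128 (embryo). Probes past 0.5 log2 were spread over the clusters: 2 lower and 2 higher in the first, 3 and 4 in the second and 1 and 1 in the third on the adult array, and 1 and 0, 5 and 3, and 0 and 0 on the embryo array.

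To read neighbouring genes together, runs of 5 consecutive array probes were taken, and a run was called at a median of at least 0.3 log2. There were 21 runs made of receptor probes alone. On the adult array 0 were lower and 0 higher, with medians from −0.204 to 0.148, where 2.06% and 1.74% of all autosomal runs were called. On the embryo array 1 was lower and 0 higher, with medians from −0.338 to 0.164, where 2.43% and 2.05% were called. The lower run spanned Olfr1230 (−0.42), Olfr1231 (0.32), Olfr1232 (−0.40), Olfr1233 (−0.10) and Olfr1234 (−0.34), in chr2:88994339-89060323. Its genes lay on both sides of 0, and on the adult array they read −0.27, −0.29, 0.06, 0.58 and −0.20.

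Many receptor probes have a probe of another kind between them, so runs of 5 neighbouring receptor probes, with the probes between them left out, were added after the data were seen. On the adult array 0 of 156 such runs were lower and 0 higher, with medians from −0.287 to 0.269, where 1.96% and 1.6% of runs of 5 neighbouring named autosomal probes were called. On the embryo array 8 of 155 were lower, a larger share than the 2.51% of the named autosomal runs, and 1 was higher, where 2.23% were called. The named autosomal runs skip only probes without a gene name, while the receptor runs also skip named probes, so they are not fully alike. The receptor runs overlap by up to 4 probes, so the 8 are not separate places. The lowest run, with a median of −0.423, held Olfr1239 (−0.89), Olfr1240 (0.28), Olfr1246 (−0.42), Olfr1247 (−0.04) and Olfr1254 (−1.08), over 371 kb. All 9 probes of that stretch had a median of −0.044 on the embryo array and 0.020 on the adult array, and the 4 probes that are not receptors had an embryo median of 0.107. The highest run held Olfr1158 (0.55), Olfr1161 (−0.11), Olfr73 (0.40), Olfr1163 (−0.02) and Olfr1164 (0.57), over 102 kb. Its receptor probes had medians of 0.404 on the embryo array and 0.268 on the adult array. All 8 probes of that stretch had a median of 0.0072 on the embryo array and 0.283 on the adult array, where 7 lay above 0. The 3 probes that are not receptors had medians of −0.126 (embryo) and 0.298 (adult).

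**Figure D3:**
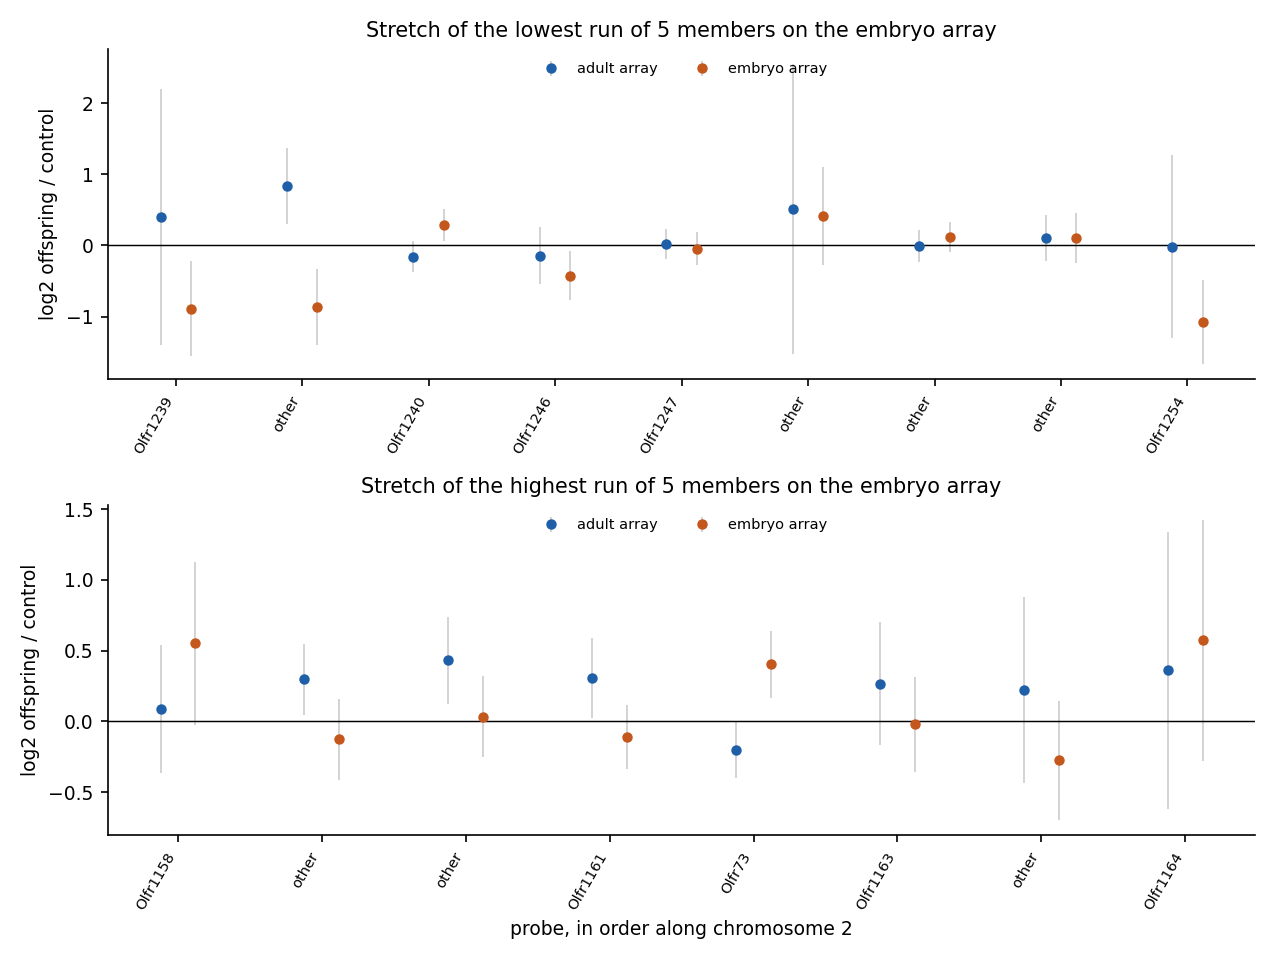
Log2 ratio of offspring over control (y axis) for every array probe in the lowest and the highest embryo run of 5 neighbouring receptor probes, in order along chromosome 2 (x axis), with adult and embryo values side by side. Grey bars are Agilent's error and probes marked other are not receptors; on the embryo array the 9 probes of the lower stretch have a median of −0.044 and the 8 of the higher stretch a median of 0.0072.

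Taken over all receptor probes, the ratios of the 2 arrays had a weak negative correlation. Over the 167 probes with both values the ratios had a Pearson coefficient of −0.187 and a Spearman coefficient of −0.171, and 69 probes (41.3%) had the same sign on both arrays, 29 below 0 and 40 above. For other named chromosome 2 probes the Pearson coefficient was −0.224 (38.8% of the same sign) and for all autosomal probes −0.252 (39.0%). Taken as Cy5 over Cy3 on both arrays, the receptor coefficient is 0.187, since the offspring dye differed between the arrays. Probe brightness was shared far more than the ratio, with a Pearson coefficient of 0.863. Past 0.5 log2 in the same direction on both arrays were 0 receptor probes, while other named chromosome 2 probes had 5 lower and 3 higher among 2997. Past the limit in opposite directions was 1 receptor probe, Olfr3, and 27 of the others.

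**Figure D4:**
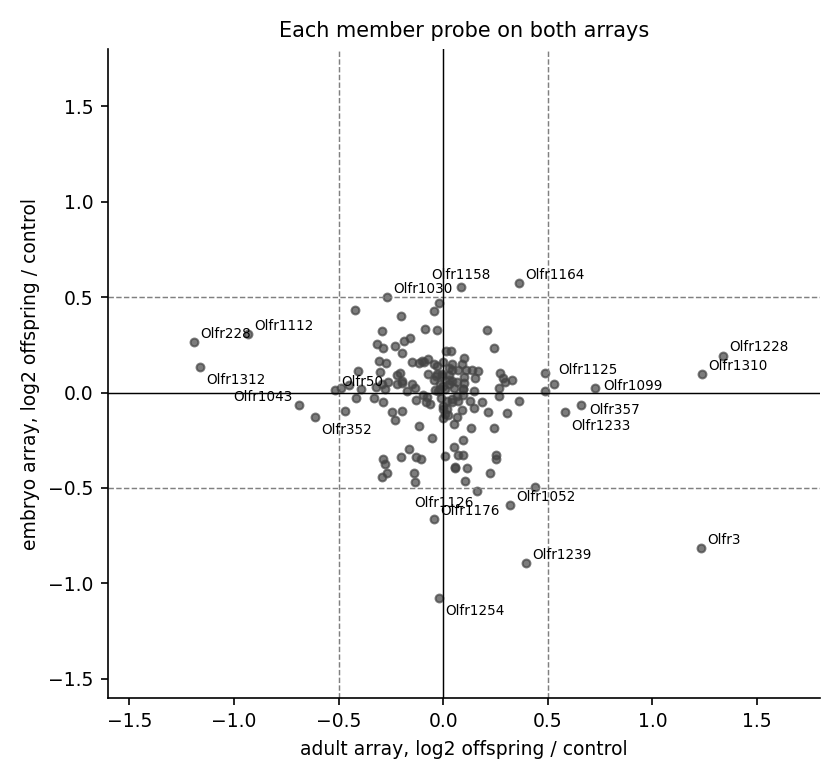
Log2 ratio of offspring over control on the adult array (x axis) and on the embryo array (y axis) for the 167 receptor probes measured on both, with dashed lines at 0.5 log2 and names for probes past them. The upper right and lower left corners past the lines are empty, and Olfr3 alone lies in a corner, at 1.23 and −0.82.

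The only test across samples that the design allows is a fit of both arrays together in limma, which asks whether a probe's mean log2 ratio differs from 0. Of 42362 probes, 0% passed at a Benjamini-Hochberg adjusted p under 0.05, and of the 167 receptor probes 0 did. The X probes, with a median of −0.86 on both arrays, did not pass either, and the smallest limma adjusted p over all probes was 0.22. With 2 arrays that differ in stage, control and dye orientation taken as replicates, the fit of the main signals had little means to pass a probe. Its count of 0 does not show that receptor ratios are at 0. Among receptors Olfr1228 had the smallest p from this fit, with a mean log2 ratio of 0.77 and a ratio above 0 on both arrays. Its limma p-value was 0.0355 before adjustment, and its Benjamini-Hochberg adjusted p from limma was 0.895. At an unadjusted p under 0.05 limma gave 1 receptor probe (0.599%), and 1920 of all probes (4.53%), the X probes among them. Fitted on autosomal probes alone, limma gave 2 receptor probes (1.2%) and 567 of 40482 probes (1.4%) at that unadjusted level, and 0 after adjustment. The same fit of normexp-corrected signals did pass 39 probes, of which 0 were receptors. Whether any probe passed thus depended on the signals used.

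Receptors are grouped into families by similarity of their proteins, and the MOR names among the RefSeq synonyms gave a family to 149 of the 150 genes, 43 families in all. No family had genes in more than 1 cluster, and 11 families had 5 or more measured genes. Among these 11 the adult medians ran from −0.189 (MOR179) to 0.164 (MOR264) and the embryo medians from −0.191 (MOR231) to 0.269 (MOR179). MOR245, the largest with 12 genes and all in the third cluster, had medians of 0.088 (adult) and −0.0094 (embryo), and held both Olfr1310 (1.24) and Olfr1312 (−1.16) of the adult array. MOR233 (11 genes) had 0.057 and −0.046, and MOR136 (10 genes, all in the first cluster) had −0.093 and −0.113.

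Among these 11 families, the medians of MOR179 lay farthest apart between the arrays. Its 5 genes read −0.42 (Olfr1086), −0.05 (Olfr1093), −0.20 (Olfr1094), −0.19 (Olfr1101) and 0.09 (Olfr1102) on the adult array. The same genes read, on the embryo array, 0.43, 0.43, 0.06, 0.27 and −0.09, so each of the 5 changed sign between the arrays. In MOR231 the embryo values of 6 genes had an SD of 0.547. Olfr1254 (−1.08), Olfr1239 (−0.89) and Olfr1234 (−0.34) were low, while Olfr1247 (−0.04), Olfr1256 (0.07) and Olfr1240 (0.28) were not, and the adult values of the 6 genes ran from −0.20 to 0.40. In MOR264 the 7 adult values ran from −0.93 (Olfr1112) to 0.53 (Olfr1125). These families were singled out after their values were seen.

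**Figure D5:**
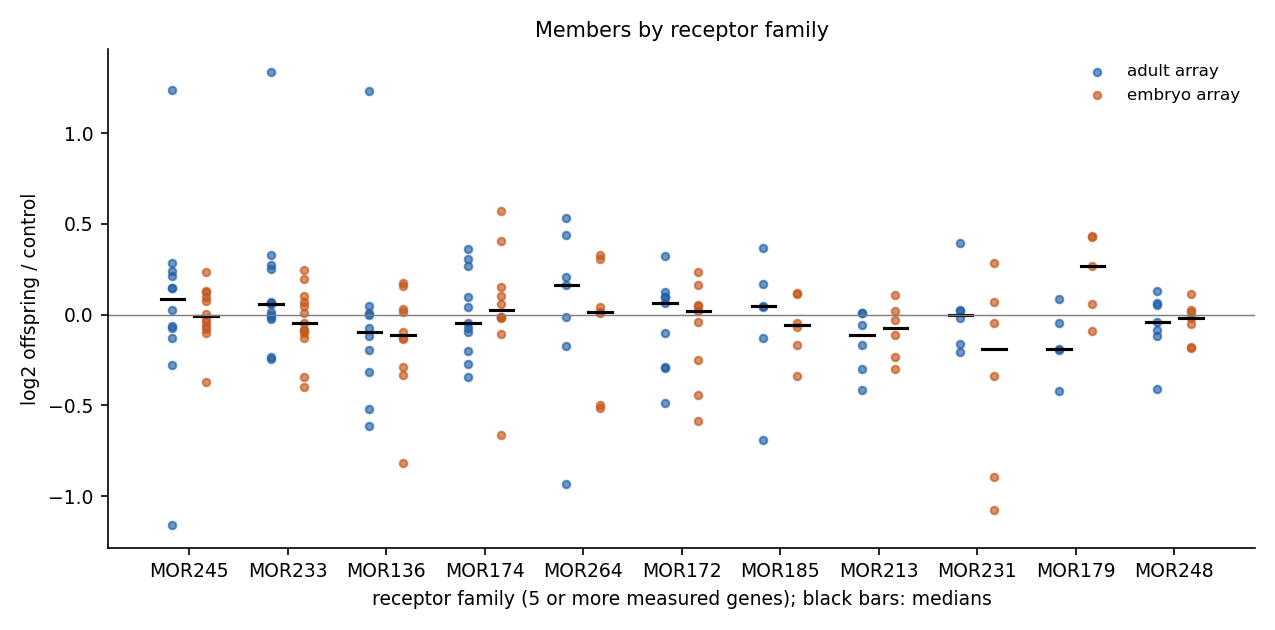
Log2 ratio of offspring over control (y axis) for the probes of the 11 receptor families with 5 or more measured genes (x axis), adult array in blue and embryo array in orange; points are probes and black bars are medians. Family medians stay between −0.191 and 0.269, and MOR179 shows the widest separation between the arrays.

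Genes with several probes show how far probes of 1 gene differ on 1 array. There were 10 such genes, with probes spanning 291 to 991 bases. Olfr355 was the steadiest on the adult array, at −0.20, −0.32 and −0.39 (SD 0.095, 3 probes), while its embryo values were 0.10, 0.25 and 0.02. Olfr1164 varied most there, at 0.36, −0.10 and −0.34 (SD 0.358), and its first probe was dim in both channels. That first probe is also the one at 0.57 on the embryo array, where the second read −0.01. Olfr1226 gave −0.09, −0.08 and −0.10 on the embryo array (SD 0.0087), with 1 pair of its probes overlapping in sequence, and 0.02, 0.0006 and −0.24 on the adult array. Olfr1277 spread from −0.41 to 0.13 on the adult array and Olfr1055 from −0.46 to 0.18 on the embryo array. No gene with several probes had more than 1 probe past 0.5 log2.

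Other genes of olfactory signalling lie elsewhere in the genome and were read in the same way. They comprise the transduction chain (Gnal, the G protein subunit; Adcy3, the adenylyl cyclase; the Cnga channel subunits), enzymes and transporters of the sensory neuron, and factors that act on receptor gene choice or neuron identity (Lhx2, Emx2, Ebf1, Ebf2, Ebf3, Ldb1). Of 35 listed names 26 were measured, 25 of them on autosomes with 50 probes. Their gene medians had a median of −0.020 on the adult array, with 0 of 25 past 0.5 log2 in either direction, and a range from −0.295 (Tmem16b, a calcium-activated chloride channel) to 0.441 (Pde1c, a phosphodiesterase). On the embryo array the median was 0.023, with 1 of 25 lower, Slc8a3 (−0.82, a sodium-calcium exchanger), and 2 higher, Ebf2 (0.78) and Pde1c (0.73). All autosomal probes gave 5.52% lower and 3.69% higher (adult) and 5.57% and 4.53% (embryo). Those shares are per probe and not per gene, and counts this small are near them. Slc8a3 and Pde1c each rest on 1 probe, and the 2 probes of Ebf2 read −0.28 and 1.84. Lhx2, which lies on chromosome 2 itself, read 0.17 and −0.29. Cnga2, a channel subunit on the X chromosome, read −0.50 and −0.63, beside the X median of −0.86 on both arrays.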

How the data were processed

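Genomic DNA was hybridised to Agilent 2-colour arrays, and the labels gave each channel's group and dye. The authors deposited scanner files with an intensity for each spot and channel. Per the file headers these were made by Agilent Feature Extraction 9.1.1.1 (9.1 per the submitters' processing notes), which subtracted background, detrended the processed signals, gave dim spots surrogate values and normalised the dyes linearly. In the deposited files the log10 ratio divides processed Cy5 by processed Cy3 signal, and the deposited error of it, which the text calls Agilent's error, is a score of the software. Values of the series matrix matched the log10 ratio to 0.0005 on 44050 spots. The sources used here name no genome build.

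Of 44050 spots, 1030 controls and 8 (adult) or 34 (embryo) outlier spots were left out. Log2 offspring over control was computed, replicate spots were averaged by probe, and the array median was then subtracted without loess, which left 42396 and 42370 probes. Both arrays were also fitted in limma 3.58.1 (R 4.3.3) against 0, with Benjamini-Hochberg adjustment over all probes. Python 3.11.15, numpy 2.4.6, pandas 2.3.3 and matplotlib 3.10.9 did the rest, and the steps were tested on simulated data before use. The genes, lists and tests were chosen with earlier results of these data known. Named are the 8 highest and 8 lowest receptor probes per array that were well above background, those past 0.5 log2 on both arrays in 1 direction, dim probes, cluster ends, genes with several probes and the extreme runs, most of them in the text. Alternatives changed the signal column (normexp, offset 50), dim spots, centring, direction, ratio source, repeated spots, comparison probes, call size and runs. Protein and probe sequences were not used here.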

Additional observations from a re-analysis of the deposited data

Results flagged for a closer look

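Olfr3, measured by 1 probe in the first cluster, moved past 0.5 log2 in opposite directions on the arrays. Its log2 ratio of offspring over control was 1.232 in adult tail and −0.815 in E10.5 embryos, with Agilent errors of 0.84 and 1.03. The difference was not tested, since each stage had 1 array. With normexp-corrected signals the values were 0.219 and −0.412. For a probe this dim the normexp offset and the centring weigh heavily on these signs, so they are no second reading of its direction. The control was the Cy5 channel on the adult array and the Cy3 channel on the embryo array, and as Cy5 over Cy3 both values were below 0.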

How the results depend on the processing

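The count of 3 clusters and the limma count of 0 receptor probes stood under each alternative run for them, while limma with normexp signals passed 39 of all probes. The limma count carries little weight, since with the main signals the fit passed no X probe either. The medians of the receptor probes ran from −0.047 to 0.010 (adult) and from 0.0094 to 0.064 (embryo), and the mean differences from like-signal probes from −0.026 to 0.025 and from 0.0059 to 0.022. Counts past 0.5 log2 did move. With normexp signals the adult counts fell from 6 lower and 7 higher to 0 and 1. The embryo counts went from 6 and 3 to 2 and 5. The normexp signals hold an added offset of 50, beside median adult receptor brightness of 40.5 (offspring) and 55.2 (control). Such an offset shrinks the log ratios of dim probes by construction. All 13 adult probes past 0.5 log2 lay in the dimmer part of the receptor probes. The adult fall in counts is therefore no second check of those ratios. With the main signals the counts at 1 log2 were 2 and 3 (adult) and 1 and 0 (embryo). With ratios also over 2 times their error they were 0 and 1, and 3 and 1. With the error limit, 0.595% (adult) and 2.40% (embryo) of receptor probes passed in either direction, beside 2.21% and 7.35% of all autosomal probes. At 1 log2 no share over all probes was taken. The embryo run count was 0 lower with normexp signals, and 8 lower and 1 higher over neighbouring receptor probes, a setting chosen after seeing the data. No run of 10 consecutive probes held receptors alone, so that length gave no value. Among receptor probes past 0.5 log2, normexp signals changed the sign of the adult ratio for Olfr352 (0.109), Olfr1043 (0.068), Olfr228 (0.103), Olfr1112 (0.068) and Olfr1312 (0.132). The embryo ratio changed sign for Olfr1158 (−0.246) and Olfr1164 (−0.352). Smaller ratios also changed sign, among them adult Olfr1015 (0.203), adult Olfr1179 (0.182) and embryo Olfr1228 (−0.278). The cause of these sign changes was not tested, and for dim probes the offset and the centring weigh on the normexp sign. Taken as Cy5 over Cy3, the adult values turn by construction: Olfr50 0.518, Olfr3 −1.23, Olfr352 0.613, Olfr357 −0.658, Olfr1043 0.689, Olfr228 1.19, Olfr1099 −0.727, Olfr1112 0.934, Olfr1125 −0.531, Olfr1228 −1.34, Olfr1233 −0.584, Olfr1310 −1.24 and Olfr1312 1.16. With normexp signals Olfr1228 read 0.615 (adult) and −0.278 (embryo). No paired analysis was possible because each stage has 1 array and the labels give no shared replicate numbers. Dim adult signal limits single probes: 7 receptor probes had a channel not well above background.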
